A study of Mus musculus with 9 samples.

Results

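Washing doxycycline out of PU.1-restored leukaemia cells was followed by loss of most of the mature neutrophil genes and PU.1 targets tested that the doxycycline cultures carried, and by return of a second set of genes that those cultures lacked. The comparison sets 3 washed libraries against 3 doxycycline libraries, 6 of the 9 libraries of the series, and pairs them by clone. All come from AML246, a mouse acute myeloid leukaemia line of the C57BL/6 strain. The line is p53-/- and carries shPU.1, a short hairpin RNA against PU.1, and the control and treated groups share both. Cells grew in medium supplemented with the cytokine IL3, and clones 1, 2 and 4 were each started from a single sorted cell.

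The doxycycline group had 14 days of Dox and was sorted as GFPoff, where the hairpin is not made. The washed group had 14 days of Dox followed by 14 days without it and was sorted as GFPhigh, where the hairpin is made. Untreated GFPhigh cells of the same clones, 3 libraries, give the level before any doxycycline. The drug, the sort gate and the hairpin differ together between the groups and cannot be told apart, and the GFP gate means that washed cells which stayed GFP-negative were not sequenced. The 3 clones come from 1 line, so the p-values measure how unevenly the clones changed between states and not spread between leukaemias. With 1 library per clone and state, variation between clones and between libraries cannot be told apart. In these bulk samples fewer cells of a type and less RNA per cell cannot be told apart.

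PU.1, encoded by Spi1, is an ETS-family transcription factor that binds purine-rich sites with a GGAA core and is required for granulocytes, macrophages and B cells to form. It switches on cytokine receptors, integrins, Fc receptors and components of the NADPH oxidase, the enzyme that makes superoxide in phagocytes. Low PU.1 blocks myeloid maturation, and reduced PU.1 activity is a known route to acute myeloid leukaemia.

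Each library held between 7408118 and 9803258 counts over 27179 gene entries, and 12004 genes had enough counts to be tested. The filter admits a gene that is well covered in 1 group only, so genes that pass include some that had to differ. A multidimensional scaling of the 9 libraries put washed clone 1 apart on the second axis (2.20, against -1.77 to 0.58 for the others). Untreated clone 1 also stood apart, with 22.0% of its counts on 1 entry that has no symbol, against 0.153% to 1.64% in the other libraries. Values that depend on washed clone 1 are given with and without it. Defining markers of B, T and NK cells summed to at most 0.490 CPM in any library, and Pf4, a platelet chemokine, was at 0 in all 9. Neutrophil markers summed to 716 to 2720 CPM in doxycycline and to 318 to 3255 CPM after washout, where the highest value, washed clone 1, came mostly from Mpo and Ctsg.

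Spi1 itself (Entrez gene 20375, chr2:91082374-91115759 on GRCm38) checks the labels. It stood at 197, 191 and 156 CPM in doxycycline clones 1, 2 and 4, where CPM is the count scaled to a common library size by TMM, the trimmed mean of M-values. After washout it stood at 52.0, 40.6 and 23.9 CPM, and the untreated clones had 48.1, 46.6 and 23.7 CPM. The lowest doxycycline value was well above the highest washed one, and each washed clone lay near its own untreated level. The log2 fold change of washed against doxycycline was -2.29 ± 0.19 (SE), and edgeR's quasi-likelihood test with the clone as a block gave an adjusted p of 0.000443. Spi1 was lower in each of the 3 clones, and the call stood under each alternative that was run. Trp53, the gene for p53, was counted at 27.2 to 43.1 CPM in doxycycline and at 33.5, 76.5 and 60.7 CPM after washout in clones 1, 2 and 4, although the labels name the line p53-/-. Gene counts do not show which exons these reads come from. Its difference of 0.61 on the log2 scale did not pass (adjusted p = 0.15), and it passed without washed clone 1 (0.89, adjusted p = 0.0223) and without untreated clone 1 (0.59, adjusted p = 0.0203).

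**Figure D1:**
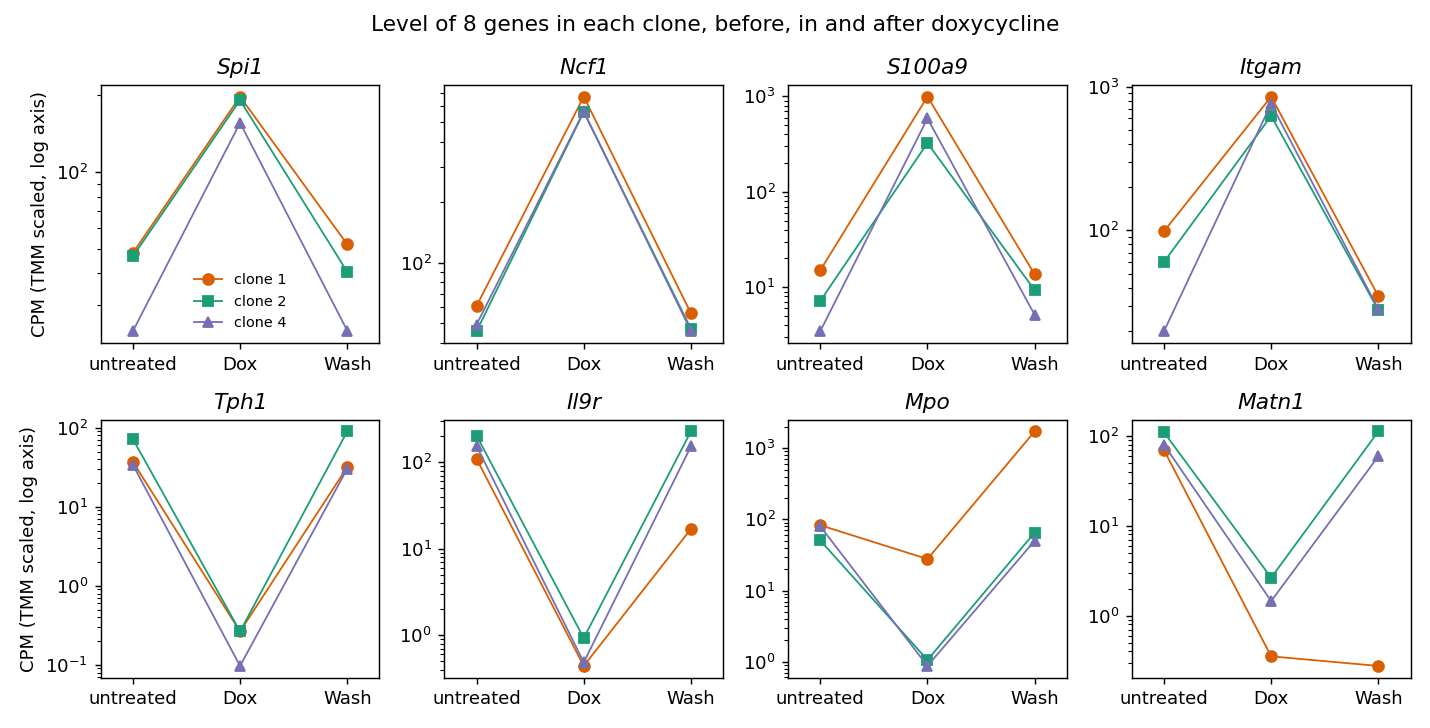
TMM-scaled CPM (log axis) of 8 genes in the untreated, Dox and Wash library of each clone, with 1 line per clone. Spi1, Ncf1, S100a9 and Itgam peaked in Dox in each clone, Tph1 and Il9r were lowest there, and Mpo and Matn1 show washed clone 1 above or below the other clones.

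Of the 12004 genes tested, 1492 (12.4%) were lower and 1252 (10.4%) were higher after washout at an adjusted p of 0.05, together 22.9%. At least 2-fold changes made up 748 of the lower and 620 of the higher genes. Of the 2744 called genes 2726 moved the same way in all 3 clones. The test that called them used these same pairs, so this agreement is set in part by the call. For 2134 of the called genes the 3 washed values did not overlap the 3 doxycycline values, and over all genes tested this share was 26.4%. The counts depended on the clone block and on single libraries: without the block 723 genes were lower and 437 higher. Leaving out washed clone 1 gave 2007 lower and 1813 higher genes. Leaving out any other washed or doxycycline library gave between 737 and 956 lower and between 507 and 607 higher, with the fewest without doxycycline clone 4. Without the whole of clone 2 or clone 4 the counts fell further, to 276 lower and 145 higher or 200 lower and 120 higher. Named genes below kept their call when any 1 library was left out, unless the text says otherwise. Without the whole of clone 2 or clone 4, only 61 or 58 of 78 named called genes beside Spi1 kept it. Those losses are not given gene by gene.

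**Figure D2:**
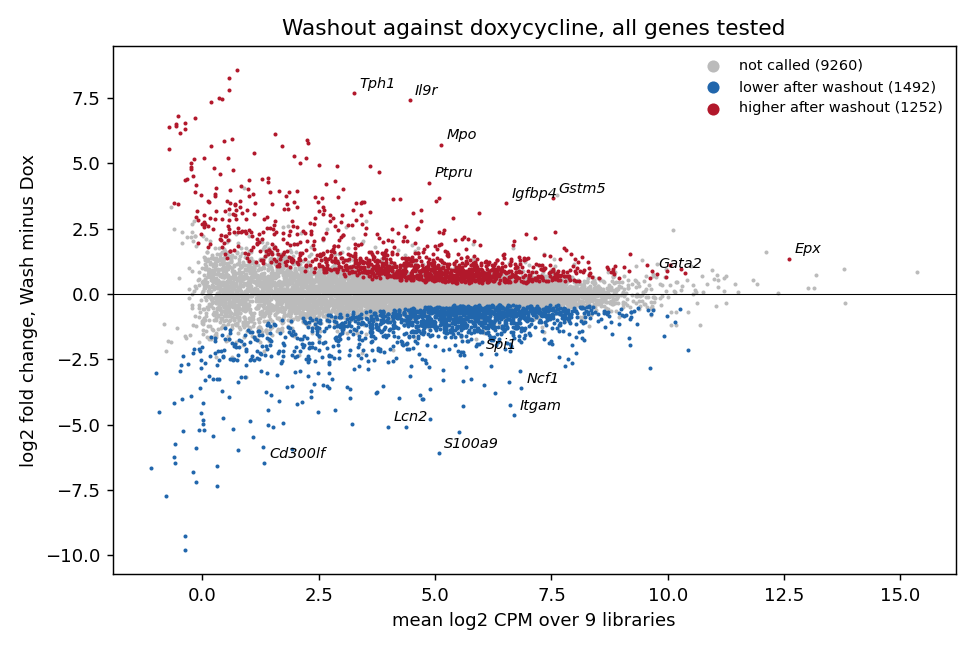
Log2 fold change of washed against doxycycline cells (y axis) by mean log2 CPM over 9 libraries (x axis) for the 12004 genes tested, with 1492 lower genes in blue and 1252 higher genes in red. S100a9, Lcn2, Itgam and Ncf1 lie far below 0, and Tph1, Il9r, Mpo and Ptpru far above it.

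List counts below are to be read beside the 12.4% lower and 10.4% higher of all genes tested. They include genes that passed the filter only through the groups where they were high. Ly6g, a mature neutrophil gene, had 37, 52 and 61 counts in doxycycline and 2, 0 and 2 after washout. Fcgr1, of the PU.1 target list, had 63, 43 and 115 and then 0, 0 and 3. Cd300lf and Clec5a below are further cases. The filter set the direction of such genes in advance, and their number was not counted. The mature neutrophil genes had the lowest median of the 34 lists. Of them 20 of 26 passed the filter and 18 of these fell, while 0 rose. The number that fell was 14 without doxycycline clone 4 and 15 without the block or washed clone 4. The median log2 difference was -2.90 against 0.02 for all genes. S100a9, a subunit of the neutrophil protein calprotectin, was the largest fall among well covered genes, those whose log2 CPM averaged 3 or more. It stood at 993, 324 and 587 CPM in doxycycline clones 1, 2 and 4 and at 13.6, 9.31 and 5.14 CPM after washout. Each clone lost nearly all of its S100a9, and the groups lay far apart (log2 fold change -6.08 ± 0.40 SE, adjusted p = 0.000233). S100a8, its partner in calprotectin, went from 422, 84.4 and 160 CPM to 20.7, 17.3 and 9.42 CPM. Clone 2 had the least S100a8 in doxycycline and the smallest drop, and the groups did not overlap (-3.65, adjusted p = 0.00241).

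Pglyrp1, a bactericidal protein that binds peptidoglycan, fell from 749, 959 and 620 CPM to 111, 150 and 86.4 CPM (-2.76, adjusted p = 0.000208). The washed values of Pglyrp1 lay far below its doxycycline values in each clone. Mxd1, a partner of MAX that opposes MYC, fell by 1.62 to 2.36 on the log2 scale within the clones (-1.99, adjusted p = 0.00115).

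Secondary and tertiary granules are filled late in neutrophil maturation. Of their 19 tested genes (25 listed) 13 fell and 0 rose, with a median of -1.75. The number that fell was 9 without the block or doxycycline clone 4. The 6 not called were Ltf, Camp, Chil3, Hp, Cybb and Anxa3, and Mmp8, Mmp9 and Fcnb were not tested. Camp stood at 11.9, 3.44 and 3.39 CPM in doxycycline and at 2.945, 9.07 and 4.89 CPM after washout. Ltf stood at 9.44, 12.3 and 9.50 CPM and then at 0.460, 6.13 and 1.22 CPM. These genes were listed after their values were seen. Lcn2, the iron-siderophore trap lipocalin 2, went from 265, 99.0 and 153 CPM in doxycycline to 4.88, 5.51 and 4.04 CPM after washout. The washed clones had nearly the same Lcn2 level although their doxycycline levels differed (-5.07 ± 0.30 SE, adjusted p = 0.000149). Lyz2, the lysozyme of myeloid cells, went from 717, 263 and 370 CPM to 58.7, 49.5 and 52.7 CPM (-2.95, adjusted p = 0.000496). Padi4, which converts histone arginines to citrulline, fell by 1.75 on the log2 scale and by 1.56 to 1.99 within the clones. Ngp, neutrophilic granule protein, was the exception among clones: it stood at 677, 32.8 and 172 CPM in doxycycline and at 7.27, 17.5 and 8.32 CPM after washout. Its call (-4.03, adjusted p = 0.0201) was lost without doxycycline clone 1 (-3.28, adjusted p = 0.0641), doxycycline clone 4 (-3.60, adjusted p = 0.0999) or washed clone 4 (-3.99, adjusted p = 0.0831).

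Primary granules are filled at the promyelocyte stage, and part of their genes was regained. Of 14 tested primary granule genes 4 rose and 1 fell (without the block 0 rose, and 4 fell without washed clone 1 and 2 without doxycycline clone 2). The 4 that rose were Mpo, myeloperoxidase, and the serine proteases Elane, Ctsg and Prtn3. Mpo stood at 27.7, 1.06 and 0.872 CPM in doxycycline and at 1720, 65.1 and 50.04 CPM after washout. All 3 clones regained Mpo by a similar factor within the clone (log2 5.94, 5.66 and 5.51), and washed clone 1 reached a level far above its untreated 82.7 CPM. The fit gave 5.71 ± 0.99 (adjusted p = 0.00643), and without the block it missed the threshold (adjusted p = 0.0662). Elane, neutrophil elastase, went from 19.0, 4.50 and 6.40 CPM to 203, 19.6 and 38.4 CPM (2.81, adjusted p = 0.00268, and 0.0609 without the block). Washed clone 1 again had the highest level, and doxycycline clone 1 and washed clone 2 were nearly equal. Prtn3, proteinase 3, rose by 1.18 (adjusted p = 0.0248), with a call that was lost without any 1 of the 3 doxycycline libraries (adjusted p of 0.116, 0.0916 and 0.0528 without clones 1, 2 and 4). Clec5a, a lectin receptor of myeloid cells that the same list holds, fell by 5.46 on the log2 scale.

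The NADPH oxidase and phagocytosis genes fell together. Of 19 tested genes (20 listed) 14 fell and 0 rose, with a median of -0.94. The number that fell was 12 without the block and 10 without doxycycline clones 1 or 4 or washed clones 2 or 4. Ncf1 encodes p47phox, the cytosolic organizer of the oxidase, and was among the genes of smallest p. It stood at 670, 562 and 566 CPM in doxycycline and at 56.0, 46.8 and 45.8 CPM after washout, and the untreated clones had 60.9, 45.6 and 49.2 CPM. The 3 clones were almost alike at each stage, with a log2 fold change of -3.60 ± 0.14 (SE, adjusted p = 1.83e-05). Cyba, the membrane subunit p22phox, fell from 1000, 634 and 628 CPM to 390, 286 and 262 CPM (-1.26, adjusted p = 0.00198). The washed values of Cyba lay below each doxycycline value. Cybb, the catalytic subunit gp91phox, was at 0.882, 0.662 and 0.872 CPM in doxycycline and at 0.920, 4.41 and 2.45 CPM after washout. The catalytic subunit was not lower after washout in any clone (1.64, adjusted p = 0.191, and 2.55 with an adjusted p of 0.0177 without washed clone 1). It was named after its values were seen, as were S100a8, Apobr, Olfm4 and Ldha.

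Tyrobp encodes DAP12, the adaptor with an activation motif on which many myeloid receptors depend. It went from 396, 343 and 344 CPM to 24.6, 22.7 and 30.1 CPM (-3.78, adjusted p = 0.0013), and the washed values of the 3 clones were close. Coro1a, an actin regulator of leukocytes, fell from 772, 831 and 791 CPM to 220, 172 and 116 CPM (-2.27, adjusted p = 0.000813). The Fc receptor chains Fcer1g and Fcgr3 did not pass (log2 differences of -0.26 and -0.27, adjusted p of 0.249 and 0.257). Their doxycycline and washed values overlapped.

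The list of PU.1 targets and myeloid receptors, which includes Spi1, had 24 of 28 tested genes (36 listed) lower and 0 higher, with a median of -1.87. The count of lower genes was 17 without the block or doxycycline clone 4, and 18 without doxycycline clone 2 or washed clone 2. Itgam encodes CD11b, the alpha chain of the Mac-1 integrin. It stood at 851, 626 and 758 CPM in doxycycline and at 34.9, 27.8 and 28.3 CPM after washout. The untreated values were 98.5, 60.3 and 19.9 CPM, so that washed clones 1 and 2 lay below and washed clone 4 above their own untreated library. The log2 fold change of Itgam against doxycycline was -4.63 ± 0.43 (SE, adjusted p = 0.000723). Ptprc encodes CD45, the receptor phosphatase that marks nearly all leukocytes. It stood at 42.2, 45.1 and 28 CPM in doxycycline and at 0.644, 0.735 and 0.489 CPM after washout, and at 2.02, 1.64 and 0.988 CPM in untreated clones. In the GFPhigh state this leukocyte marker was close to 0 in all clones, and its fall was among those of smallest p (-5.92 ± 0.25 SE, adjusted p = 2.19e-05).

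On the list of inhibitory receptors and phosphatases 13 of 19 tested genes were lower and 1 was higher, with a median of -1.60. Sirpa and Cd300lf, described next, are also on the PU.1 target list, so these lists do not count separate genes. Sirpa, the receptor for the CD47 signal on target cells, fell from 371, 500 and 419 CPM to 119, 121 and 106 CPM (-1.89, adjusted p = 0.000374). Cd300lf, an inhibitory receptor for phospholipids, went from 37.0, 50.8 and 55.2 CPM to 0.276, 0.245 and 1.10 CPM (-6.48, adjusted p = 0.000208). The 1 gene that rose was Ptpru, a receptor tyrosine phosphatase that is not specific to myeloid cells. It stood at 5.03, 4.37 and 2.62 CPM in doxycycline and at 96.6, 77.9 and 54.4 CPM after washout. The clones moved Ptpru by nearly the same factor, with log2 ratios of 4.20, 4.09 and 4.26 (fit 4.26 ± 0.15 SE, adjusted p = 1.83e-05).

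Pattern recognition receptors also fell. Of 18 tested genes 11 were lower and 0 higher, with a median of -1.22; the count was 7 without the block, without doxycycline clone 2 or without washed clone 2. Clec4e, the lectin Mincle, fell from 34.8, 28.3 and 33.2 CPM to 3.59, 1.47 and 3.43 CPM (-3.52, adjusted p = 0.00049). Clec12a, an inhibitory lectin that binds uric acid crystals, fell from 217, 40.6 and 56.3 CPM to 17.8, 3.43 and 3.06 CPM (-3.74, adjusted p = 0.000866). Nod1, a cytosolic sensor of bacterial cell wall, fell by 1.61 to 1.88 on the log2 scale within the clones.

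Enzymes that make lipid mediators from arachidonic acid fell in 7 of 14 tested genes and rose in 0, with a median of -0.54 (4 lower without the block). Alox15, the 12/15-lipoxygenase, had the second largest fall among well covered genes. It stood at 178, 1024 and 550 CPM in doxycycline and at 6.53, 28.4 and 9.79 CPM after washout. Clone 1 had the least Alox15 in both states, and the ratio within the clones was alike (log2 -4.72, -5.16 and -5.78, fit adjusted p = 0.000378). Alox5ap, the protein that presents arachidonic acid to 5-lipoxygenase, fell from 254, 299 and 220 CPM to 45.0, 17.4 and 20.3 CPM (-3.32, adjusted p = 0.000602). Cyp4f18, which hydroxylates leukotriene B4, fell from 122, 231 and 135 CPM to 9.66, 13.2 and 9.42 CPM (-3.88, adjusted p = 0.000392).

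Lysosomal genes fell in 14 of 36 tested and rose in 0, with a median of -0.50. The count of lower genes was 8 without the block or without doxycycline clone 1 and 9 without doxycycline clone 4. Man2b1, the lysosomal alpha-mannosidase, fell from 1206, 1836 and 1094 CPM to 271, 425 and 362 CPM (-1.95, adjusted p = 0.00113). Grn, the precursor of granulins, fell from 665, 406 and 351 CPM to 158, 162 and 160 CPM (-1.51, adjusted p = 0.00228). Asah1, acid ceramidase, went from 260, 244 and 244 CPM to 83.2, 103 and 79.5 CPM (-1.50, adjusted p = 0.000723). The washed levels of these 3 genes lay below each doxycycline value.

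Most tested genes of the megakaryocyte and platelet list were lost. Of 11 tested megakaryocyte and platelet genes 7 fell and 0 rose, with a median of -1.44. The number that fell was 5 without doxycycline clones 1 or 4 or washed clone 4. Itga2b, the integrin chain CD41, fell from 499, 666 and 457 CPM to 104, 129 and 79.8 CPM (-2.39, adjusted p = 0.0012). Its partner chain Itgb3 fell from 103, 159 and 136 CPM to 24.8, 32.8 and 22.1 CPM (-2.34, adjusted p = 0.000793). F2rl2, the thrombin receptor PAR3, fell by 3.65 to 3.85 on the log2 scale within the clones, while Pf4, a defining platelet chemokine, had 0 counts in every library. On the eosinophil list 5 of 12 tested genes fell, Alox15 among them, and 2 rose. On the stromal and endothelial list 2 of 5 fell. Siglecf, a sialic-acid receptor of eosinophils, fell from 48.9, 15.2 and 18.4 CPM to 4.14, 0.368 and 0.979 CPM (-4.09, adjusted p = 0.00041). Epcam, an adhesion molecule of epithelia, fell from 15.9, 72.8 and 31.1 CPM to 1.75, 4.29 and 2.81 CPM (-3.60, adjusted p = 0.000353), while the other 4 defining stromal and endothelial markers stood at or under 0.245 CPM in each library.

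Markers of immature cells did not return as a group. Of 14 tested progenitor and leukaemia genes 2 (14.3%) fell and 2 (14.3%) rose, near the 12.4% and 10.4% of all genes tested. Kit, the stem cell factor receptor, fell from 281, 144 and 221 CPM to 121, 48.8 and 57.4 CPM (-1.57, adjusted p = 0.00223). Cd34, a sialomucin of progenitors, fell from 293, 81.6 and 172 CPM to 61.6, 26.2 and 19.1 CPM (-2.33, adjusted p = 0.00719). Both were thus higher in the doxycycline state than after washout in each clone. The genes that rose were Adgrg1, an adhesion receptor also called GPR56 (1.55, adjusted p = 0.00235), and the mucin Muc13 (4.66, adjusted p = 0.001). Myb, a transcription factor of progenitors, did not pass (0.21, adjusted p = 0.593): it was 384, 249 and 406 CPM in doxycycline and 708, 217 and 365 CPM after washout.

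Some transcription factors fell as well. Of 39 tested myeloid factors 9, Spi1 among them, fell and 0 rose, with a median of -0.32; 4 fell without the block or without doxycycline clone 2, and 5 without doxycycline clone 4 or washed clone 4. Stat3, the effector of G-CSF and IL6 signals, fell from 215, 236 and 237 CPM to 95.2, 97.1 and 99.4 CPM (-1.23 ± 0.13 SE, adjusted p = 0.00112). The 3 clones had almost the same Stat3 level in each state. Ets2, an ETS factor related to PU.1, fell by 1.22 (adjusted p = 0.00215). Gata2, a factor of progenitors and mast cells, did not pass (0.77, adjusted p = 0.209), with 238, 1167 and 504 CPM in doxycycline and 222, 1872 and 1422 CPM after washout. Washed clones 2 and 4 were above their doxycycline libraries and clone 1 was not, and without washed clone 1 Gata2 passed (1.21, adjusted p = 0.0153). Ikzf1, a zinc-finger factor of lymphoid and myeloid cells, stood at 299 to 370 CPM in doxycycline and 284 to 378 CPM after washout (-0.07, adjusted p = 0.78).

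**Figure D3:**
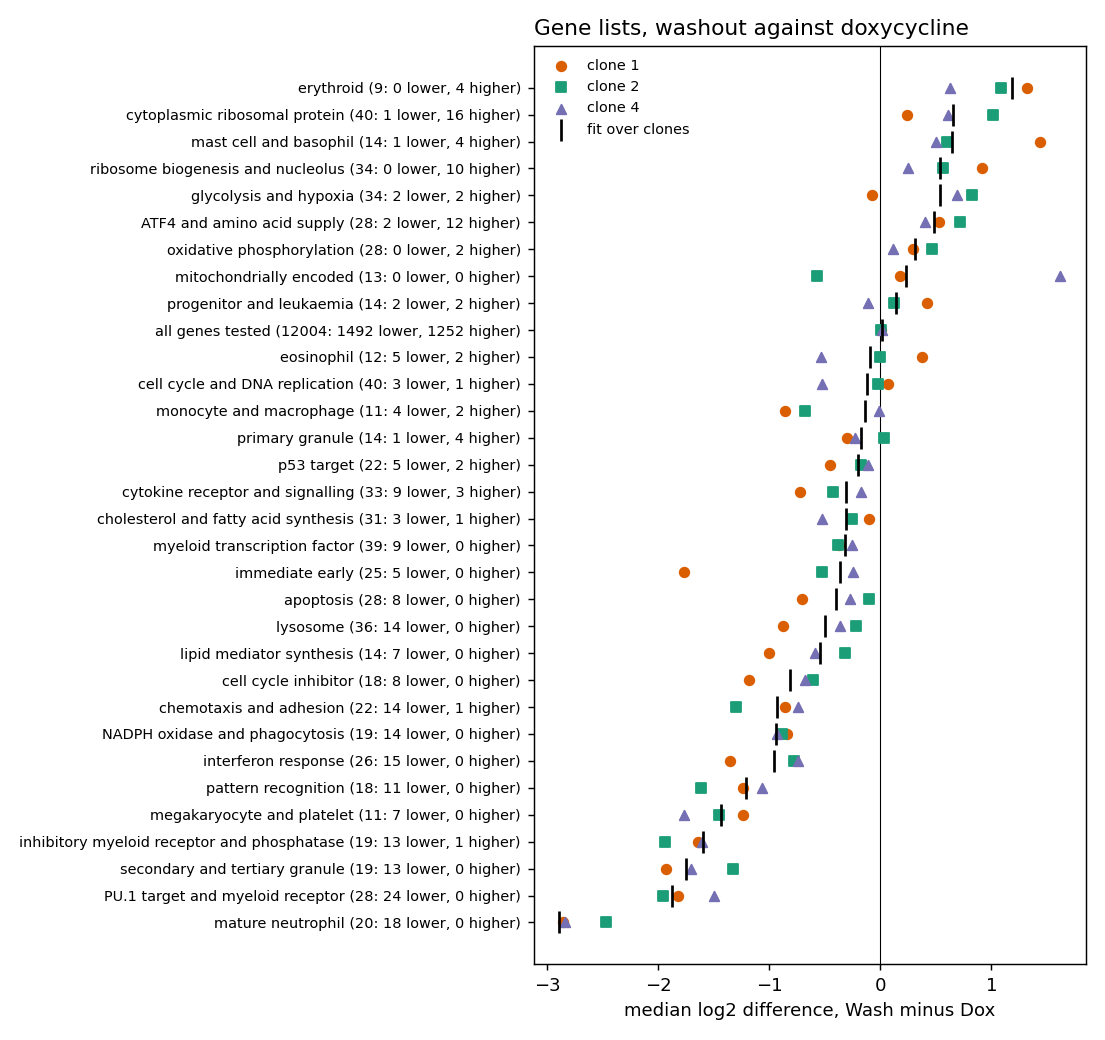
Median log2 difference, Wash minus Dox (x axis), of the tested members of each gene list with at least 9 tested members, for each clone (points) and for the fit (bars), with the number of genes tested, lower and higher in brackets. Mature neutrophil genes lie lowest in each clone, the PU.1 target, secondary granule and inhibitory receptor lists lie between -1.96 and -1.33 in each, and clones differ most on the mitochondrially encoded and immediate early lists.

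The proximal promoters of lost genes were read for the sequence GAGGAAGT and its reverse complement ACTTCCTC, a form of the purine-rich PU.1 site with its GGAA core. The window was the 250 bases before the start of each promoter in the RefSeq table (GRCm38.p6). The motif was in 75 of 1624 promoters of lower genes (4.62%) and in 21 of 1228 promoters of higher genes (1.71%), and 1 gene can have several promoters. It was in 2.29% of the promoters of genes not called, 2.54% of those of all genes tested and 2.44% of all 32851 promoters in the table. A match is a description of the sequence and not a binding site. The 5 promoters below, chosen after the values were seen, belong to lost genes of different roles, are written 5′ to 3′ on the strand of the gene, and carry the motif in capitals. Gapt (chr13:110357173-110357422, minus strand) encodes an adaptor that binds GRB2, and Cyp2a5 (chr7:26835089-26835338, plus strand) a cytochrome P450. S100a8 (chr3:90668821-90669070, plus strand), Apobr (chr7:126584758-126585007, plus strand), a receptor for apolipoprotein B48, and Olfm4 (chr14:80000052-80000301, plus strand), a glycoprotein of a neutrophil subset, are the others.
Gapt: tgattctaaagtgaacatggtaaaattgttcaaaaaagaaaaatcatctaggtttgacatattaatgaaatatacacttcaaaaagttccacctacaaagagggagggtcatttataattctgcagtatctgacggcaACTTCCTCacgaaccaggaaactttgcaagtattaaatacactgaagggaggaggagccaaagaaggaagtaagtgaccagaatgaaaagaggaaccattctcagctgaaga
Cyp2a5: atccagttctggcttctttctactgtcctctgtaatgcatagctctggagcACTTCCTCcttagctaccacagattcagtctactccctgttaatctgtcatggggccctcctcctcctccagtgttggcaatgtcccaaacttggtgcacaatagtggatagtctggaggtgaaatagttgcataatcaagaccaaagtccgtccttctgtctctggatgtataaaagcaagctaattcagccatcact
S100a8: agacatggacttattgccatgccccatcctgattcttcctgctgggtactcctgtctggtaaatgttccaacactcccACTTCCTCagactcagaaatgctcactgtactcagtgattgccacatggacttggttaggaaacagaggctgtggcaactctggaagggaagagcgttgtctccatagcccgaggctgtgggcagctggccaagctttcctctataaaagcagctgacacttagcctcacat
Apobr: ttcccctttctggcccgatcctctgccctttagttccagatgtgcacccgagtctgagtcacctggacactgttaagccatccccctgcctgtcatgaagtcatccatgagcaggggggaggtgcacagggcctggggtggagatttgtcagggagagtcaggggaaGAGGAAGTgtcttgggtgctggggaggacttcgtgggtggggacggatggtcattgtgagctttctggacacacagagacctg
Olfm4: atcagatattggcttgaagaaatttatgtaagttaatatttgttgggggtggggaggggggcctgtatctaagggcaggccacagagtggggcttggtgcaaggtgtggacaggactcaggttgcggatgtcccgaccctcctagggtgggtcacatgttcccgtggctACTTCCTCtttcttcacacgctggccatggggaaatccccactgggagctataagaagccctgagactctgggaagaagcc

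The motif reads along the gene in Apobr and on the opposite strand in the other 4. Between the motif and the start site of the promoter table lie 104 bases in Gapt, 191 in Cyp2a5, 164 in S100a8, 75 in Apobr and 73 in Olfm4. For Cyp2a5, S100a8 and Olfm4 that site is also the gene's start in the RefSeq gene table. For Gapt and Apobr the gene table has a start farther upstream, at 110357220 and 126584918, and the Apobr motif lies inside that gene span. Gapt stood at 175, 236 and 222 CPM in doxycycline and at 11.7, 5.39 and 3.79 CPM after washout (log2 fold change -5.07, adjusted p = 0.000417). Cyp2a5 went from 1058, 540 and 673 CPM to 73.5, 25.9 and 29.0 CPM (-4.23 ± 0.24 SE, adjusted p = 0.000127). Clone 1 was highest for Cyp2a5 in both states, and the groups lay far apart for both genes. Apobr fell from 199, 328 and 206 CPM to 16.6, 36.3 and 25.1 CPM (-3.25, adjusted p = 0.000285). Olfm4 fell from 5596, 1962 and 2892 CPM to 1365, 151 and 345 CPM (-2.84, adjusted p = 0.0035), and without the block it missed the threshold (adjusted p = 0.070). Washed clone 1 kept an Olfm4 level near that of doxycycline clone 2.

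Other well covered genes among the 15 largest falls included Lipg, the endothelial lipase, which went from 173, 236 and 251 CPM to 5.98, 17.5 and 4.53 CPM (-4.78, adjusted p = 0.0021). Rflnb, a regulator of actin and filamin, fell from 277, 200 and 211 CPM to 33.0, 7.23 and 9.05 CPM (-4.01, adjusted p = 0.00104). Washed clone 1 kept the most Rflnb, above its untreated 5.32 CPM. Cstdc4 and Cstdc5, cystatins of a family of near-identical copies between which reads may be shared, fell by 4.99 and 4.28 on the log2 scale.

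**Figure D4:**
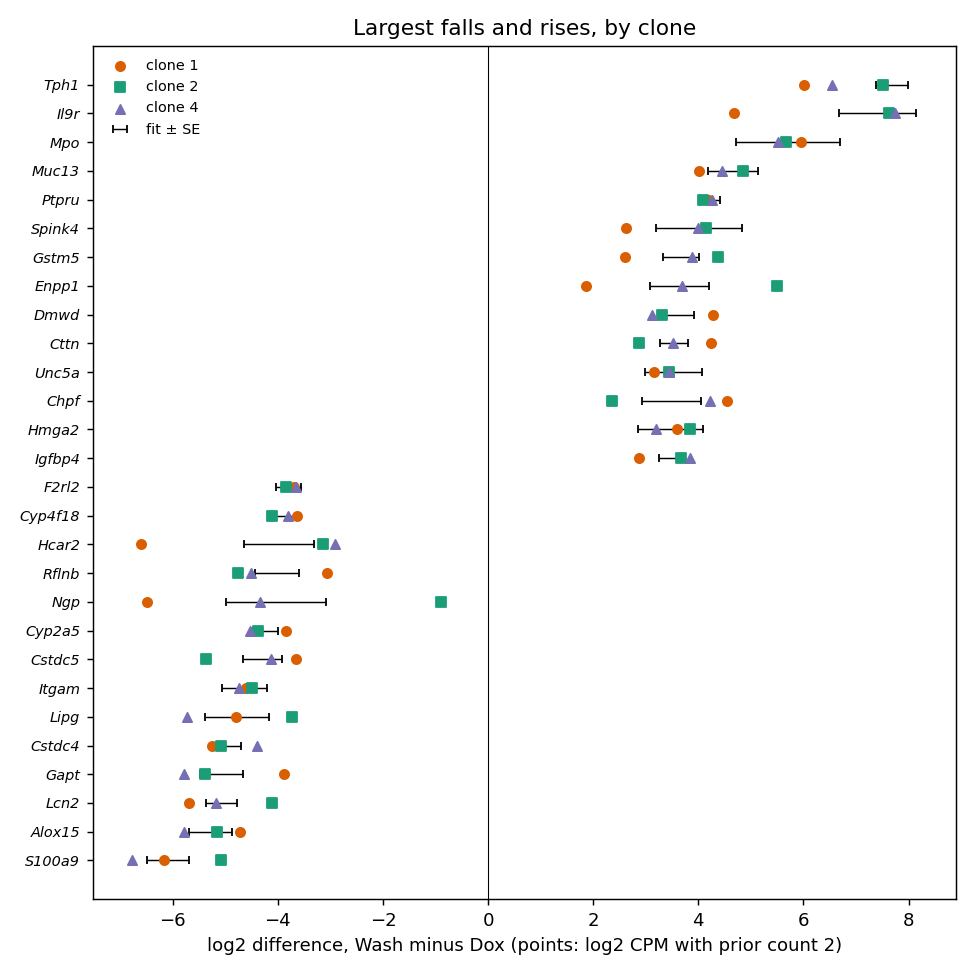
Log2 difference, Wash minus Dox (x axis), for 14 of the 15 largest falls and 14 of the 15 largest rises among called genes whose log2 CPM averaged 3 or more and that moved 1 way in all clones. Points are the clones (log2 CPM with a prior count of 2), and bars are the fitted value ± SE. Ngp and Hcar2 have the widest spread between clones among the falls, and Enpp1 among the rises.

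The genes regained after washout were led by Tph1 and Il9r. Tph1 encodes tryptophan hydroxylase, the rate-limiting enzyme of serotonin synthesis outside the brain, which mast cells use. It stood at 0.265, 0.265 and 0.0969 CPM in doxycycline and at 31.8, 90.1 and 30.3 CPM after washout, against 37.1, 72.0 and 34.1 CPM in untreated clones. Tph1 was almost silent in doxycycline and returned to about its untreated level in each clone (log2 fold change 7.68 ± 0.30 SE, adjusted p = 1.83e-05). Il9r, the alpha chain of the interleukin 9 receptor, stood at 0.441, 0.926 and 0.485 CPM in doxycycline and at 16.9, 227 and 152 CPM after washout. Clones 2 and 4 regained their untreated 203 and 155 CPM, and clone 1 remained below its untreated 109 CPM. The fit over clones was 7.41 ± 0.73 (SE, adjusted p = 0.000835).

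On the list of mast cell and basophil genes 4 of 14 tested rose and 1, Kit, fell, with a median of 0.65. The number that rose was 2 without the block, and also without any doxycycline library or without washed clone 2. Cma1, a mast cell chymase, rose from 0.353, 0.397 and 0.291 CPM to 5.34, 16.5 and 4.89 CPM (4.45, adjusted p = 0.00214). Fcer1a, the alpha chain of the high-affinity IgE receptor, had no counts in any library. Epx, the peroxidase of eosinophil granules, rose from 4784, 2890 and 2654 CPM to 10552, 7893 and 7324 CPM (1.35, adjusted p = 0.00878), and the call was lost without doxycycline clone 4 (1.29, adjusted p = 0.0669). Epx and the receptor Siglecf, both of the eosinophil list, thus moved in opposite directions.

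Cytokine receptor and signalling genes fell more often than they rose. Of 33 tested 9 (27.3%) fell and 3 (9.09%) rose, with a median of -0.31, against 12.4% and 10.4% of all genes; 5 fell without the block. Epor, the erythropoietin receptor, rose from 0.529, 1.98 and 1.74 CPM to 4.33, 18.4 and 10.5 CPM (2.90, adjusted p = 0.00112). Tgfbr2, the type II receptor for TGF-beta, fell from 90.3, 192 and 120 CPM to 14.6, 37.6 and 35.6 CPM (-2.23, adjusted p = 0.000815). Csf2ra, the GM-CSF receptor alpha chain, fell from 45.4, 49.1 and 34.8 CPM to 13.3, 19.4 and 15.7 CPM (-1.42, adjusted p = 0.00168). Csf2rb, the beta chain that GM-CSF and IL5 receptors share and that also serves IL3, stood at 911, 2794 and 2017 CPM in doxycycline and 485, 1432 and 1783 CPM after washout. Those values overlapped (-0.68, adjusted p = 0.141), and the difference passed without untreated clone 1 (-0.70, adjusted p = 0.0471). Cx3cr1, the fractalkine receptor, was the only 1 of 22 tested chemotaxis and adhesion genes that rose, while 14 fell (9 without the block); without washed clone 1 a second gene rose. It stood at 0.353, 0.265 and 0.485 CPM in doxycycline and at 9.66, 14.5 and 18.5 CPM after washout (5.20 ± 0.34 SE, adjusted p = 0.000208).

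Other large rises were in genes of varied function. Gstm5, a glutathione transferase, rose from 36.2, 26.9 and 33.0 CPM to 221, 564 and 492 CPM (3.68, adjusted p = 0.000723). Cttn, the actin-binding protein cortactin, rose from 3.71, 10.7 and 6.01 CPM to 73.8, 79.4 and 71.2 CPM (3.55, adjusted p = 0.00037). Igfbp4, which binds insulin-like growth factors, rose from 18, 15.2 and 21.7 CPM to 133, 195 and 316 CPM (3.47, adjusted p = 0.000208). Cttn returned to one level in the 3 washed clones, whereas Igfbp4 kept the order of the untreated clones, which stood at 154, 181 and 338 CPM. Hmga2, an architectural chromatin protein of growing and embryonic cells, rose from 8.47, 0.265 and 1.55 CPM to 106, 6.86 and 16.2 CPM (3.48, adjusted p = 0.00708, and 0.0884 without the block). The washed and doxycycline ranges of Hmga2 overlapped, with clone 1 highest in both.

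Genes of protein synthesis rose in part. Of 34 ribosome biogenesis and nucleolar genes 10 rose and 0 fell, with a median of 0.54; 2 rose without the block, 5 with library size alone and 6 without doxycycline clone 1 or doxycycline clone 2. Npm1, the nucleolar chaperone nucleophosmin, rose from 226, 131 and 185 CPM to 510, 455 and 318 CPM (1.24, adjusted p = 0.00559). Of 40 cytoplasmic ribosomal protein genes 16 rose and 1 fell, with a median of 0.66. That count varied widely: it was 30 without washed clone 1, 4 without doxycycline clone 1, 2 without doxycycline clone 4, and 1 without doxycycline clone 2, washed clone 2 or washed clone 4. Without the block 4 rose, and with scaling by library size alone 2. Ribosomal protein genes have many processed copies, and how the counting treated reads with several matches is not given in the sources used here. Rps2, a protein of the small subunit, rose from 166, 115 and 127 CPM to 307, 235 and 208 CPM (0.88, adjusted p = 0.0059). Its call was lost with library size alone (adjusted p = 0.0656) and when tested against a fold of 1.5 (0.111). It was also lost without the whole of clone 2 (0.0803) or clone 4 (0.0967).

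Amino acid supply genes under the factor ATF4 rose in 12 of 28 tested and fell in 2, with a median of 0.48. The number that rose was 4 without the block, 7 with library size alone, and 5 to 7 without doxycycline clone 1, 2 or 4 or washed clone 2. Phgdh, the first enzyme of serine synthesis, rose from 19.9, 5.82 and 16.3 CPM to 79.5, 25.4 and 43.8 CPM (1.83, adjusted p = 0.00344, and 0.054 without the block). Atf5, a factor of the same family, rose from 22.4, 19.3 and 16.4 CPM to 53.7, 69.6 and 45.8 CPM (1.52, adjusted p = 0.000908). Atf3, a stress-induced factor, went the other way, from 14.1, 26.3 and 10.9 CPM to 0.552, 3.31 and 1.10 CPM (-3.56, adjusted p = 0.000994). Among 9 tested erythroid genes 4 rose (2 without the block) and 0 fell, and these included Fech, which inserts iron into heme (1.35, adjusted p = 0.00401).

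Genes that restrain growth were among those lost. Of 18 cell cycle inhibitors 8 fell and 0 rose, with a median of -0.81; 5 fell without the block, doxycycline clone 1 or washed clone 2, and 4 without doxycycline clone 2. Tob2, an antiproliferative protein, fell from 134, 119 and 117 CPM to 40.7, 54.5 and 56.3 CPM (-1.30, adjusted p = 0.00178). Btg2, of the same family, fell from 119, 205 and 92.7 CPM to 14.6, 63.4 and 39.3 CPM (-1.91, adjusted p = 0.00708). Of 40 cell cycle and replication genes 3 (7.5%) fell and 1 (2.5%) rose, against 12.4% and 10.4% of all genes. The number that fell was 8 without washed clone 1 and 1 with library size alone or without any other washed or doxycycline library. The gene that rose, Cdk4, was not called without the block, with library size alone, or without doxycycline clone 2 or washed clone 2. Mki67, the proliferation marker Ki-67, stood at 733, 507 and 571 CPM in doxycycline and 609, 271 and 299 CPM after washout (-0.69, adjusted p = 0.0341). Washed clone 1 overlapped the doxycycline values of Mki67, and the call was lost without the block (adjusted p = 0.265), with library size alone (0.168), in the 6 libraries alone (0.0724) and without untreated clone 4 (0.0796), doxycycline clones 1, 2 or 4 (0.0618, 0.110 and 0.148) or washed clones 2 or 4 (0.149 and 0.148).

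Interferon response genes fell in 15 of 26 tested and rose in 0, with a median of -0.96. The count was 5 without the block and 5 to 7 without any 1 of doxycycline clones 1, 2 and 4 and washed clones 2 and 4. Parp14, an interferon-induced ADP-ribosyltransferase, fell from 19.1, 17.9 and 18.7 CPM to 5.89, 3.55 and 5.26 CPM (-1.94, adjusted p = 0.00268). The washed values of Parp14 lay below the doxycycline values. Of 28 apoptosis genes 8 fell and 0 rose; 2 fell without the block, 5 with library size alone, 3 to 5 without any 1 of doxycycline clones 1, 2 and 4 and washed clones 2 and 4, and 3 rose without washed clone 1.

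The 34 lists together held 661 tested genes, of which 177 fell and 68 rose. Several lists with 0 rises above had some without washed clone 1: 3 lysosome, 2 secondary and tertiary granule, 2 lipid mediator, and 1 each of the mature neutrophil, NADPH oxidase, transcription factor, cell cycle inhibitor and interferon lists. Without doxycycline clone 1, 2 lysosome genes rose. With library size alone, 1 gene each of the secondary and tertiary granule, lipid mediator and apoptosis lists rose.

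Among lists of other cell types, calls went in both directions. Of 12 eosinophil genes 5 (41.7%) fell and 2 (16.7%) rose, with a median of -0.09, and the number that rose was 0 without doxycycline clone 4 and 1 without the block or any of doxycycline clones 1 and 2 and washed clones 2 and 4. Of 11 monocyte and macrophage genes 4 (36.4%) fell and 2 (18.2%) rose, with a median of -0.14; 1 fell without the block, doxycycline clones 2 or 4 or washed clone 2, 2 fell without washed clone 4, and 1 rose without the block, doxycycline clones 1 or 4 or washed clones 2 or 4. Of 5 B, T and NK cell genes 1 rose, and 0 rose without the block or any other washed or doxycycline library than washed clone 1. Of 5 stromal and endothelial genes 2 fell (1 without the block or washed clone 2), and of 4 tested dendritic and MHC class II genes 0 were called.

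Stress, energy and lipid lists held between 2 and 7 called genes each. The shares lower and higher were 22.7% and 9.09% of p53 targets and 20% and 0% of immediate early genes. They were 9.68% and 3.23% for cholesterol and fatty acid synthesis and 0% and 7.14% for oxidative phosphorylation. Over all genes tested they were 12.4% and 10.4%. Of 22 p53 target genes 5 fell and 2 rose; the number that fell was 2 without the block or doxycycline clone 4 and 3 without doxycycline clone 2 or washed clone 2, and 1 rose without the block, with library size alone, or without any doxycycline library or washed clone 4. Of 25 immediate early genes 5 fell and 0 rose; 3 fell without the block or doxycycline clones 1 or 2, 8 fell without washed clone 4, 9 fell with library size alone, and 2 rose without washed clone 1. Of 31 cholesterol and fatty acid synthesis genes 3 fell and 1 rose; 7 fell and 2 rose without washed clone 1, and at most 1 fell and 0 rose without the block, with library size alone or without any other washed or doxycycline library. Of 28 oxidative phosphorylation genes 2 rose and 0 fell; at most 1 rose without the block, with library size alone or without any of doxycycline clones 1, 2 and 4 and washed clones 2 and 4.

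Glycolysis and hypoxia genes differed between clones. Of 34 tested 2 (5.88%) rose and 2 (5.88%) fell, against 10.4% and 12.4% of all genes, and without washed clone 1 the number that rose was 17. It was 5 with library size alone, 0 without the block and 1 without any other washed or doxycycline library. The median difference was -0.08 in clone 1, 0.82 in clone 2 and 0.69 in clone 4. Aldoa, the glycolytic aldolase, stood at 815, 2297 and 887 CPM in doxycycline and at 684, 5981 and 1954 CPM after washout. Clones 2 and 4 more than doubled it and clone 1 did not (0.90, adjusted p = 0.193, and 1.42 with an adjusted p of 0.00602 without washed clone 1). Ldha, lactate dehydrogenase A, stood at 511, 1470 and 709 CPM and then at 922, 3543 and 1405 CPM (1.06, adjusted p = 0.0634). Ldha passed without washed clone 1 (1.34, adjusted p = 0.0143) and without untreated clone 1 (1.04, adjusted p = 0.00489). With all 3 clones it also passed in DESeq2 (adjusted p = 0.00387), in limma voom (0.0445), with no filter on low counts (0.0401) and in the 6 libraries alone (0.0236).

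The level reached after washout was set against the untreated clones. The same model called 0 of the 12004 genes (0%) between washed and untreated cells, with 98 genes at an unadjusted p under 0.05 and a smallest adjusted p of 0.956. DESeq2 and limma voom also called 0, with 125 and 122 genes at an unadjusted p under 0.05. A call of 0 with 3 clones does not show that the groups are equal. Over the 2744 genes called between washed and doxycycline cells, the median absolute log2 difference was 1.00 from doxycycline and 0.15 from untreated, against 0.40 and 0.16 over all genes tested. The called genes were chosen for their difference from doxycycline, so their first value is set in part by that choice. The fitted washed mean was within 1.5-fold of the untreated one for 93.8% of the called genes and for 92.9% of all genes tested. Both comparisons share the washed libraries. For the PU.1 target list the median of washed minus untreated was -0.11, and for the mature neutrophil list it was -0.06.

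The single clones show how that average was made. Over all genes tested, the median absolute log2 difference of washed from untreated was 0.488 in clone 1, 0.167 in clone 2 and 0.113 in clone 4. The same measure of washed from doxycycline was 0.477, 0.493 and 0.404. Washed clone 1 was therefore about as far from its untreated library as from its doxycycline library, and washed clones 2 and 4 lay close to theirs. At least 2-fold differences from the untreated library were found for 19.8% of genes in clone 1, 1.87% in clone 2 and 1.58% in clone 4. Untreated clone 1 is the library with 22.0% of its counts on 1 entry, so both libraries of the clone 1 pair stand apart, and their part in the difference was not tested.

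**Figure D5:**
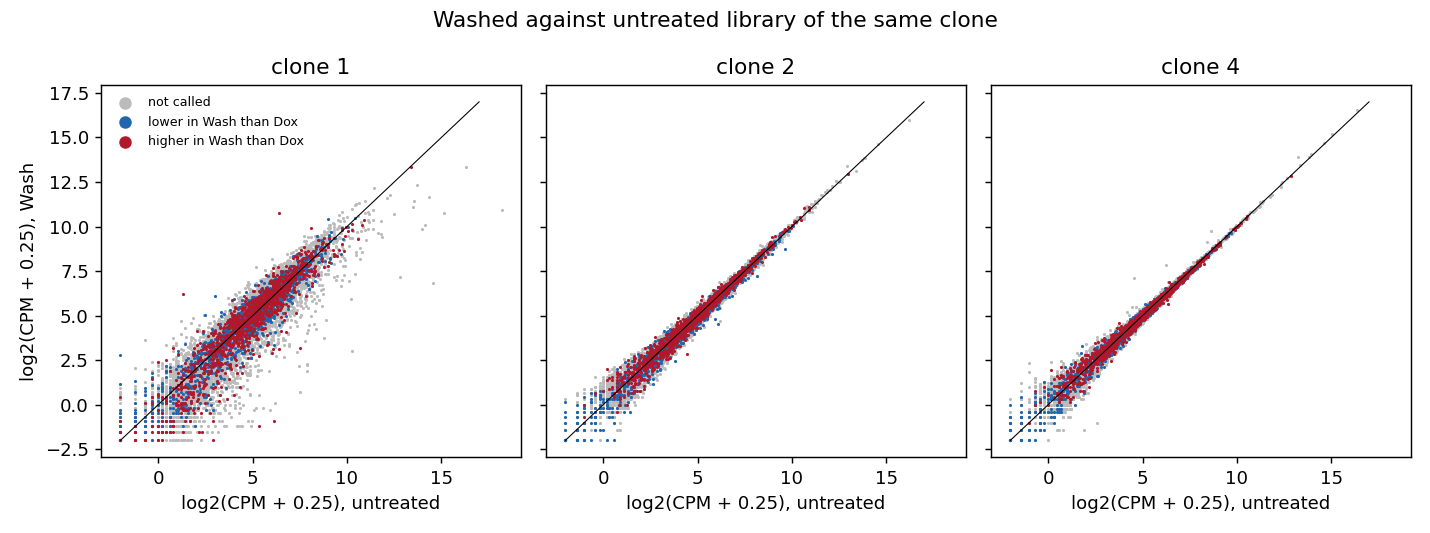
Log2(CPM + 0.25) of each gene in the washed library (y axis) against the untreated library of the same clone (x axis), with the line of equality and genes coloured by their call in washed against doxycycline cells. The points of clones 2 and 4 hug the line, and those of clone 1 scatter more widely, with many genes below it.

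Clone 1 could be read as a library pair that was not used to call the genes. It did take part in the filter over all clones, which helped choose the genes kept here. Without clone 1 the model called 2262 genes lower and 2063 higher in clones 2 and 4, and of those also tested with all clones, 2220 and 2034, clone 1 moved the same way in 85.1% and 79.9%. The share of all genes lower after washout in clone 1 was 49.5%. The median change of clone 1 was -0.69 over the lower genes, where the other clones had a fitted median of -0.87, and 0.54 over the higher genes, where they had 0.90. With clone 2 held out in the same way, 275 of 275 lower and 145 of 145 higher genes moved the same way in it. With clone 4 held out these counts were 200 of 200 and 119 of 120. The lists differ in length, since the fit without clone 1 calls many more genes of small change. This reading was chosen after the data were seen.

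Some genes were high in washed clones 2 and 4 and low in washed clone 1. Among genes called at least 2-fold higher without clone 1, the genes described next were picked, after their values were seen, from the 20 with the largest shortfall of washed from untreated clone 1. Ptgds, prostaglandin D synthase, stood at 15, 43.7 and 62.4 CPM in doxycycline and at 7.92, 1262 and 915 CPM after washout, with 1218, 1159 and 832 CPM in untreated clones. Clone 1 stayed at its doxycycline level while washed clones 2 and 4 lay at or above their untreated level (3.805, adjusted p = 0.0611, and 4.65 with an adjusted p of 0.000551 without washed clone 1). With all clones Ptgds passed with library size alone (adjusted p = 0.0061), with no filter on low counts (0.0305) and in DESeq2 (0.0155). Matn1, the matrix protein matrilin 1, was at 0.276 CPM in washed clone 1, and at 112 and 59.2 CPM in washed clones 2 and 4. Its untreated values were 69.5, 109 and 79.7 CPM, and its doxycycline values 0.353, 2.65 and 1.45 CPM. Matn1 was called over the 3 clones (4.89, adjusted p = 0.0249), but not without any 1 of doxycycline clones 1, 2 and 4 or washed clones 2 and 4 (adjusted p of 0.0722 to 0.122).

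Dlc1, a GTPase-activating protein, was at 0.184, 47.1 and 20.1 CPM in the washed clones and at 40.0, 51.4 and 16.4 CPM in the untreated clones. Tead1, a DNA-binding partner of the Hippo effector YAP, was at 0, 44.1 and 12.4 CPM in the washed clones and at 7.15, 33.8 and 9.14 CPM in the untreated clones. In doxycycline Dlc1 was at most 1.06 CPM and Tead1 at most 0.529 CPM. Dlc1 was called over the 3 clones (5.77, adjusted p = 0.027), but not without any 1 of doxycycline clones 1, 2 and 4 or washed clones 2 and 4 (adjusted p of 0.0799 to 0.126). Tead1 was called too (6.11, adjusted p = 0.0149), but not without any 1 of clones 2 and 4 in doxycycline or after washout (adjusted p of 0.0533 to 0.100). Ndrg1 and P4ha2, genes induced by low oxygen, were at 4.23 and 0.828 CPM in washed clone 1, against 179 and 73.2 CPM in untreated clone 1. Ndrg1 stood at 270.0 CPM untreated, 89.6 CPM in doxycycline and 320.5 CPM after washout in clone 2, and at 57.4, 45.7 and 55.3 CPM in clone 4, which hardly differed between states. The P4ha2 level of washed clones 2 and 4 was 137 and 44.9 CPM, and that of their untreated libraries 112 and 39.3 CPM. Over the 3 clones neither Ndrg1 (0.47, adjusted p = 0.746) nor P4ha2 (1.89, adjusted p = 0.193) was called, and P4ha2 passed without washed clone 1 (adjusted p = 0.0073) and without untreated clone 1 (0.0432).

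The same washed library also differed in the genome of the mitochondrion. The 13 mitochondrially encoded protein genes summed to 26871 CPM in washed clone 1 against 149180 CPM in untreated clone 1. In clones 2 and 4 the washed sums were 141610 and 214860 CPM, and the untreated sums 150880 and 193800 CPM. Doxycycline clone 1 was low as well, at 22323 CPM, and doxycycline clones 2 and 4 had 196420 and 65179 CPM. None of the 13 genes was called (0 lower, 0 higher), and the part of these sums in the results for clone 1 was not tested.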

How the data were processed

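Per the labels' protocols, RNA was prepared from FACS-sorted cell pellets with a QIAGEN RNeasy plus kit and sequenced on Illumina libraries. The authors deposited whole-number read counts per Entrez gene for each library, per the file headers, with no normalization. The submitters' processing notes list the mm10 build, featureCounts and CASAVA 1.8.2, and for statistics limma 3.22.0 with edgeR 3.8.2. The sources used here do not give the aligner, strand setting or treatment of reads with several matches, so genes on opposite strands of 1 locus cannot be told apart and paralogs may share reads. Symbols, coordinates and promoters came from RefSeq tables of GRCm38.p6, the build also called mm10, and 25275 of 27179 entries matched a symbol.

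Low genes were removed with filterByExpr, and libraries were scaled by TMM. A quasi-likelihood model of group and clone was fitted to the 9 libraries with edgeR 4.0.16 (R 4.3.3), and washed against doxycycline and washed against untreated were tested with Benjamini-Hochberg adjustment at 0.05. SE was taken as the log2 fold change over the square root of F, and log2 CPM per library used a prior count of 2. The clone number pairs the libraries because a clone is the same cell line, and deviations from the group means correlated within clones at 0.29 to 0.68 in all 9 pairs. Between different clones the correlations ranged from -0.69 to 0.32. The lowest value within a clone, doxycycline and washed clone 4, thus lay under the highest between clones, doxycycline clone 2 and washed clone 4. Deviations of the 3 libraries of a group sum to 0, so positive correlations within clones force some between clones to be negative. The contrast of these ranges is therefore set in part by the calculation. No 2 libraries agreed within sampling noise (smallest chi-square per degree of freedom 3.58, for untreated and washed clone 4), so each counted once. On simulated counts with 200 of 12004 genes changed between washed and doxycycline cells, 39% of 2-fold and 90% of 4-fold changes were recovered, with 11 false calls. The real comparison called 22.9% of genes, a far larger share, so these rates need not hold for it.

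The comparison and the 34 gene lists (839 names, 836 matched) were chosen with earlier results of these data known. They covered neutrophil granules, phagocyte, receptor and transcription factor genes, other blood and stromal lineages, and growth, ribosome, metabolic, stress, interferon, lysosome, lipid and death genes. Genes were named by a rule: Spi1 and Trp53; the 15 largest falls and 15 largest rises of called genes that averaged 3 or more in log2 CPM and moved 1 way in all clones; up to 5 called genes of smallest p and up to 3 uncalled genes of highest level per list; the 6 called genes of widest clone range; and 6 of smallest p against untreated. Other genes are said to be chosen after their values were seen, and results for a few genes are left out here. Alternatives were DESeq2 1.42.0, voom in limma 3.58.1, glmTreat against a fold of 1.5, no block, the 6 libraries alone, library size alone or RLE size factors, a filter at 5 CPM in at least 3 libraries or no filter, and leaving out each clone and each library. Figures were drawn with matplotlib 3.10.9.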

Additional observations from a re-analysis of the deposited data

How the results depend on the processing

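With no replicate block, 723 genes were lower and 437 higher, against 1492 and 1252 with the clone as a block. Scaling by library size alone gave 978 and 712, and glmTreat against a fold of 1.5 gave 510 and 321. Leaving out a clone or a library gave 200 to 2262 lower and 120 to 2063 higher genes. Of the genes on the 34 lists 177 were lower and 68 higher; this was 109 and 23 with no replicate block, 102 and 26 with glmTreat, and 60 to 232 lower and 11 to 148 higher with a clone or library left out. With other settings (RLE size factors, DESeq2, limma voom, other filters and the 6 libraries alone) the counts over all genes were 1187 to 1602 lower and 966 to 1479 higher. Spi1 remained called in each setting, at -2.48 to -2.06 when a clone or library was left out, and washed against untreated cells had 0 calls in each. Of 78 called genes named here beside Spi1, 68 kept the call without the block and 78 without washed clone 1. Without the whole of clone 2 or clone 4, 61 or 58 kept it. None changed direction in any setting. Fewer clones also mean fewer residual degrees of freedom. With scaling by library size alone the median of all genes in washed against untreated moved from 0.01 to 0.20, and in washed against doxycycline from 0.02 to -0.01. Depth limits genes under about 1 CPM, which rest on few counts per library.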
